A study of Mus musculus with 3 samples.

Results

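The genes described here are 10 components of the Toll-like receptor and NF-kB response, measured in single cells of the mouse aorta. They were chosen by symbol as a pathway list, not by a threshold on any value, and comprise the receptors *Tlr4*, *Tlr2* and *Cd14*, the adaptor *Myd88*, the transcription factor subunit *Nfkb1*, the inhibitors *Nfkbia* and *Tnfaip3*, and the cytokines *Il1b*, *Il6* and *Tnf*. The choice was made with earlier results of these data known. All 10 are among the 32285 genes counted, and each had at least 1 transcript in each of the 3 libraries.

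The 3 groups were male *APOE2*, *APOE3* and *APOE4* gene replacement mice, in which the human gene for 1 of the common apolipoprotein E isoforms stands in place of mouse *Apoe*, on the C57BL/6J background. All mice had eaten a Western diet, with 42% of the calories from fat and 0.2% cholesterol, for 16 weeks starting at the age of 12 weeks, so that no group on a control diet enters the comparisons. Aortas from the arch to the iliac bifurcation were minced and digested with enzymes, and the cells of each genotype were pooled into 1 droplet-based library, from 6 mice for *APOE2*, 5 for *APOE3* and 7 for *APOE4*. The question was how the level of each gene varied between the cell types of the vessel and between the genotypes. With 1 library per genotype no difference between genotypes could be tested, and the intervals given below cover counting error only.

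Toll-like receptors sense microbial products and molecules released by damaged cells or carried by modified lipoproteins, and in the atherosclerotic vessel they are known on macrophages, endothelial cells and smooth muscle cells. Ligand binding recruits the adaptor MyD88 and activates kinases that mark the IkB proteins for degradation, which releases NF-kB dimers to the nucleus. NF-kB then induces cytokine genes and also its own inhibitors, among them *Nfkbia*, which encodes IkBα, and *Tnfaip3*, which encodes the ubiquitin-editing enzyme A20, so that transcripts of these inhibitors are commonly read as targets of the pathway.

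Promoter sequences are shown for *Il6*, *Nfkbia* and *Tnfaip3*, because these 3 genes were all higher in *APOE4* than in *APOE3* in both smooth muscle-like and fibroblast-like cells, as described further on. *Nfkb1* was also higher in both but had no promoter sequence to search. Each sequence comprises the 150 bases before a transcription start, is written 5′ to 3′ on the strand of the gene, and comes from RefSeq on the GRCm38.p6 assembly. Capitals mark exact matches to the NF-kB consensus site of 10 bases, searched on both strands. The *Il6* sequence lies at chr5:30012964-30013113 on the plus strand, that of *Nfkbia* at chr12:55492648-55492797 on the minus strand and that of *Tnfaip3* at chr10:19015411-19015560 on the minus strand.
Il6: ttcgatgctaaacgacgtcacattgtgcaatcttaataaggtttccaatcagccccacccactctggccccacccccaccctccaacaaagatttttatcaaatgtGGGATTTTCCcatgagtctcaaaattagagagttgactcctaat
Nfkbia: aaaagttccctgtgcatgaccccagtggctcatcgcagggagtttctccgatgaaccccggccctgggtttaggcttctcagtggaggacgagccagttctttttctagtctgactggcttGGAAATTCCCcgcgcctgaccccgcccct
Tnfaip3: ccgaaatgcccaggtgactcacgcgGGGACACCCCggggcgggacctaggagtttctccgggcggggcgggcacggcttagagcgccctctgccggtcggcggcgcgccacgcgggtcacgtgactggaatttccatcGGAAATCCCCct
The *Il6* match begins 44 bases before the start and reads in the sense direction, and that of *Nfkbia* begins 29 bases before the start and reads in the antisense direction. The *Tnfaip3* sequence shown holds a sense match that begins 125 bases before the start and an antisense match that begins 12 bases before it. A second *Tnfaip3* window, at chr10:19011914-19012213, held 0 matches. Of the 10 genes, 7 had a window of 300 bases in the sequence table, and 4 of these, including *Tlr2*, held at least 1 match, whereas *Il1b*, *Myd88* and *Tnf* held none. Counted by window, 4 of the 8 windows of these genes held a match, and 1480 (4.51%) of all 32851 windows of that length. A match describes letters in these windows and does not show binding in these cells.

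In the annotation of GRCm38 (GENCODE vM21), all 10 genes are protein coding. The receptor genes *Tlr4* and *Tlr2* lie at chr4:66827584-66930284 and chr3:83836272-83841767, and *Myd88* lies at chr9:119335934-119341411. *Nfkb1* spans chr3:135584655-135691547, *Nfkbia* spans chr12:55489410-55492647 and *Tnfaip3* spans chr10:19000910-19015657. The cytokine genes *Il1b*, *Il6* and *Tnf* lie at chr2:129364570-129371139, chr5:30013114-30019981 and chr17:35199381-35202007.

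The deposited values were unique molecular identifier (UMI) counts, in which each captured transcript is counted once. Cells with at least 200 detected genes and under 20% mitochondrial UMIs numbered 11772 in *APOE2*, 6737 in *APOE3* and 8248 in *APOE4*, together 26757 of 28506 barcodes, with 168310501, 125105151 and 124926887 UMIs in all and medians of 12047, 17618 and 13522 UMIs per cell. Between 14 and 27 barcodes were shared by any pair of libraries and 0 by all 3. Cells were clustered without the genes described here and clusters were named from markers. The macrophage-like, endothelial-like, T lymphocyte-like and B lymphocyte-like clusters had all 10 of their markers raised, the neutrophil-like cluster had 9, the 2 fibroblast-like clusters had 10 and 8, and the 10 smooth muscle-like clusters each kept 9 or 10 of 10 markers. The classes held 18362 smooth muscle-like, 3371 fibroblast-like, 809 macrophage-like, 327 B lymphocyte-like, 254 T lymphocyte-like, 219 endothelial-like and 93 neutrophil-like cells, and 3322 cells in mixed or shallow clusters remained unnamed. The level of a gene in a class was taken as its UMIs per 1000000 UMIs of those cells (CPM). Mouse *Apoe* itself was counted in all 3 libraries, with 32082, 25037 and 22551 UMIs over all cells, and since the mm10 reference holds no human gene these counts do not check the genotype labels.

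The 10 genes were unevenly spread over the cell types. Transcripts of *Tnf* and *Cd14* were found mainly in macrophage-like cells, which were 3.02% of all cells and held 86.8% of all *Tnf* UMIs and 75.4% of all *Cd14* UMIs. *Il1b*, the gene for interleukin 1β, came almost wholly from myeloid cells, with 50.6% of its UMIs in the neutrophil-like and 43.1% in the macrophage-like class when the libraries were pooled. The balance differed by library, the neutrophil-like share being 55.2%, 39.2% and 18.3% in *APOE2*, *APOE3* and *APOE4* and the macrophage-like share 37.6%, 59.2% and 78.1%. *Il6* was instead a transcript of the mesenchymal cells, with 58.3% of its pooled UMIs in fibroblast-like and 33.2% in smooth muscle-like cells. The fibroblast-like share was 34.9%, 84.4% and 78.4% in the 3 libraries and the smooth muscle-like share 57.6%, 7.29% and 11.95%, so that the order of the 2 classes in *APOE2* was the reverse of that in the others. That reversal rested on 190 *APOE2* cells whose class differed between clusterings, as described below. They held 92.8% of the *Il6* UMIs of the *APOE2* smooth muscle-like class. The UMIs of *Tlr4* and *Nfkbia* followed the number of cells more closely, with 70.6% and 67.8% in the smooth muscle-like class, which was 68.6% of all cells.

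**Figure D1:**
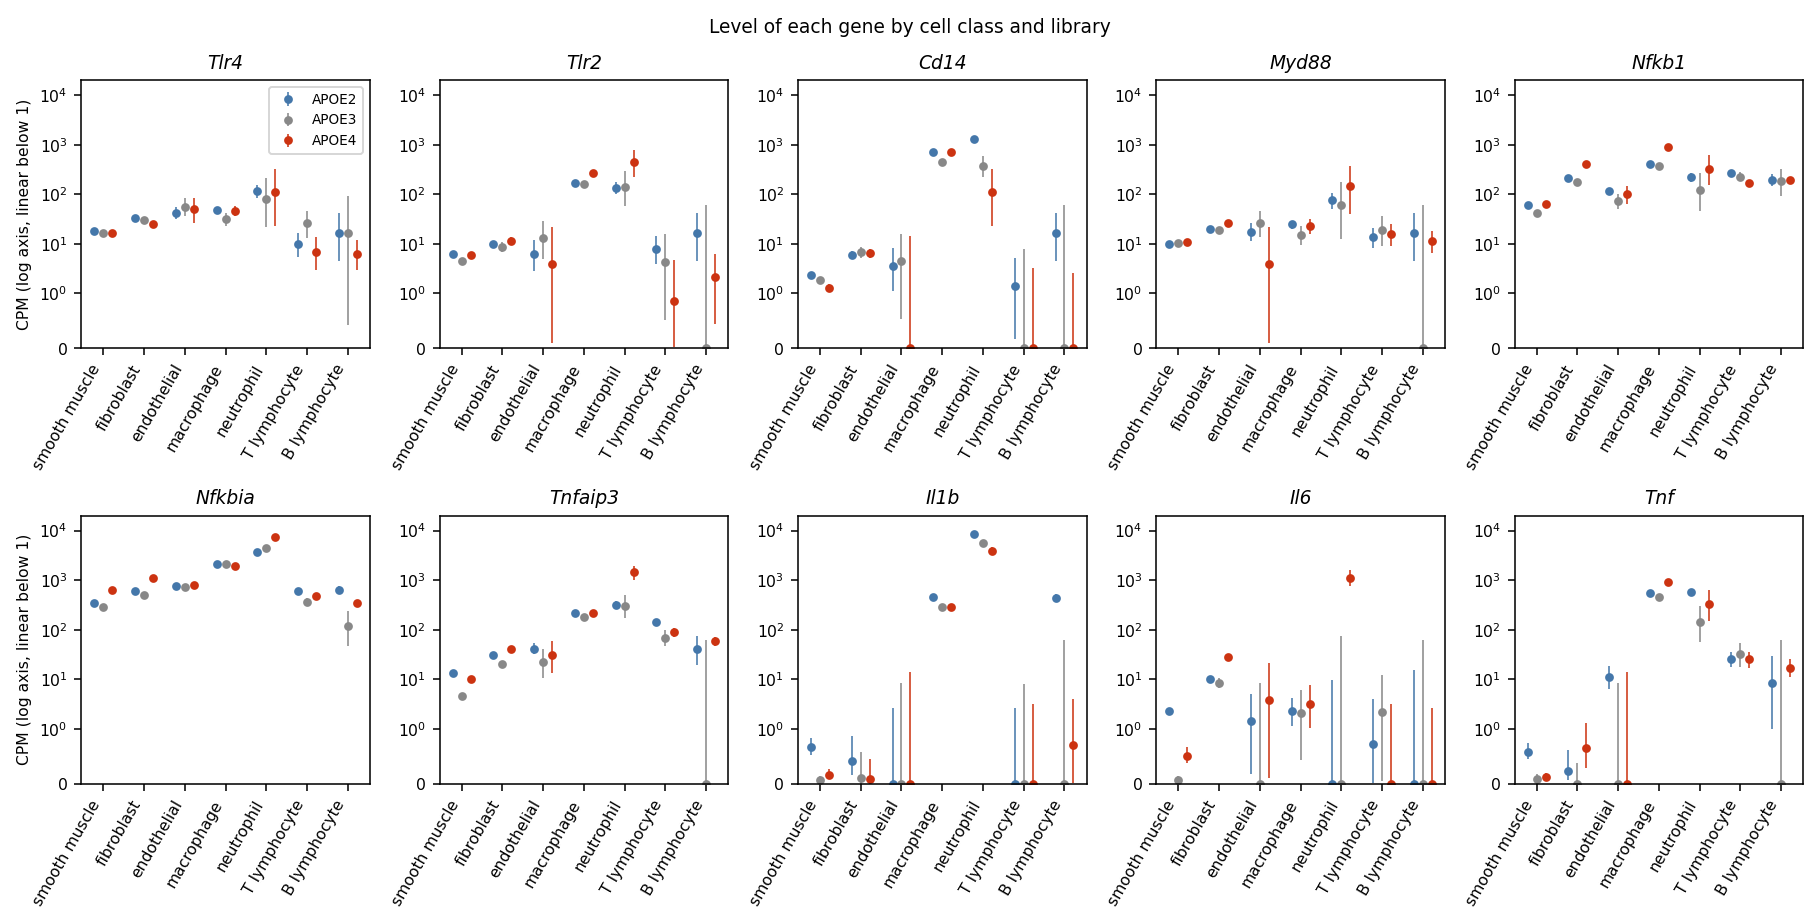
Level of each of the 10 genes, in CPM on a log axis that is linear below 1, by cell class; each point is 1 of the 3 pooled genotype libraries and bars are exact Poisson 95% intervals. *Il1b*, *Tnf* and *Cd14* were at 288.5 CPM or more in macrophage-like cells and at 6.71 CPM or less in fibroblast-like and smooth muscle-like cells, whereas *Nfkbia* was at 286 CPM or more in both of these.

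A ratio between libraries was counted as past the fold used here when it was at least 1.5 in either direction and the 2 libraries together held at least 50 UMIs of the gene. Since the genes were chosen with earlier results of these data known, their counts beside the share of all genes are a description only. In smooth muscle-like cells, 4 of 10 genes were higher in *APOE2* than in *APOE3* (*Tnfaip3*, *Il1b*, *Il6* and *Tnf*), where 9.96% of all genes were higher by this rule. Of these, *Il1b*, *Il6* and *Tnf* reached 50 UMIs only through the *APOE2* library, so their entry into the count depended on the library in which they were high. *Il1b* and *Tnf* were under 1 CPM in this class and are described with their counts below. Whether these counts were background or expression by these cells was not tested. In the same cells, 4 of the 8 genes with enough UMIs were higher in *APOE4* than in *APOE3* (*Nfkb1*, *Nfkbia*, *Tnfaip3* and *Il6*), against 8.31% of all genes. These same 4 genes were the ones higher in *APOE4* fibroblast-like cells, again of 8, against 5.53% of all genes, while in *APOE2* fibroblast-like cells *Tnfaip3* was the 1 gene of 8 that was higher, against 4.91%. In macrophage-like cells, 4 of 9 genes were higher in *APOE2* (*Tlr4*, *Cd14*, *Myd88* and *Il1b*), against 8.84% of all genes, and 4 of 9 were higher in *APOE4* (*Tlr2*, *Cd14*, *Nfkb1* and *Tnf*), against 8.82%. Among macrophage-like cells with few smooth muscle transcripts, all 4 of the *APOE2* ratios and those of *Tlr2* and *Cd14* in *APOE4* were short of the fold, as given with each gene. No member was lower than in *APOE3* past the fold in any of these 6 comparisons, where 2.88% and 3.37% of all genes were lower in smooth muscle-like, 5.7% and 4.91% in fibroblast-like and 11.1% and 9.01% in macrophage-like cells of *APOE2* and *APOE4*. Both sets of ratios share the *APOE3* library as denominator, so a low or high value of that library enters both. *Il6* in *APOE4* smooth muscle-like cells and *Tlr4* and *Myd88* in *APOE2* macrophage-like cells also had under 50 UMIs in *APOE3* and reached the minimum through the higher library. The median log2 ratio of the members was 0.49 in both smooth muscle-like comparisons, 0.21 and 0.76 in fibroblast-like cells and 0.28 and 0.57 in macrophage-like cells for *APOE2* and *APOE4*, and that of all genes lay between −0.10 and 0.05.

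**Figure D2:**
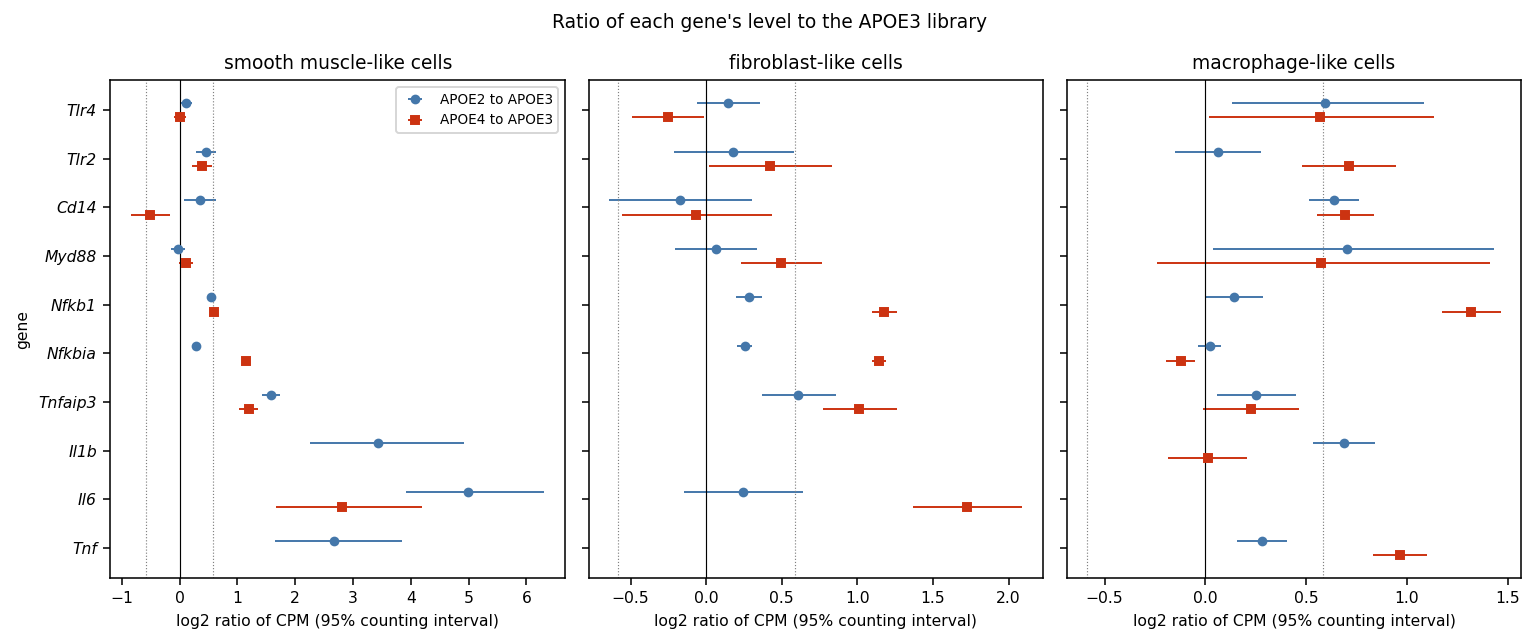
Log2 ratio of CPM to *APOE3* for each gene in smooth muscle-like, fibroblast-like and macrophage-like cells, with exact conditional binomial 95% intervals that cover counting error only; *APOE2* and *APOE4* are separate points, dotted lines mark 1.5-fold and genes with under 50 UMIs are left out. *Nfkbia* and *Nfkb1* of *APOE4* stand to the right of zero in fibroblast-like cells, at 1.14 and 1.18, and *Il6* of *APOE2* stands farthest to the right in smooth muscle-like cells, at 4.98.

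*Tlr4*, the lipopolysaccharide receptor, varied little between the smooth muscle-like cells of the 3 libraries. Smooth muscle-like cells of *APOE2*, *APOE3* and *APOE4* mice held 17.8, 16.4 and 16.4 CPM, and fibroblast-like cells, in that order of genotypes here and below, 33.2, 29.97 and 25.2 CPM. The counting intervals of the smooth muscle-like values overlapped, and the fibroblast-like ones overlapped between *APOE2* and *APOE3* with *APOE4* the lowest. Endothelial-like cells had 42.2, 55.7 and 49.8 CPM from 98 UMIs in all, and the intervals of the 3 libraries overlapped. Macrophage-like cells held 47.7, 31.6 and 46.9 CPM of *Tlr4*, from 225, 46 and 73 UMIs. The *APOE3* library was therefore the lowest, the log2 ratio to it being 0.60 in *APOE2* (interval 0.13 to 1.09) and 0.57 in *APOE4* (0.02 to 1.13), so that both intervals nearly reached 0. Neutrophil-like cells held the highest level, at 82.0 to 117 CPM, but from 52 UMIs of 93 cells. The macrophage-like and endothelial-like ranges of *Tlr4* overlapped, so these neighbours in the order of levels could not be set apart.

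*Tlr2*, which pairs with other family members to bind bacterial lipoproteins, was more restricted. Macrophage-like cells of the 3 libraries held 171, 164 and 268 CPM, compared to 4.54 to 6.19 CPM in smooth muscle-like and 8.59 to 11.5 CPM in fibroblast-like cells. The *APOE4* macrophage-like cells stood above the other two libraries, whose intervals overlapped, with a log2 ratio to *APOE3* of 0.71 (0.48 to 0.95), and 0.54 (0.30 to 0.79), short of the fold, among macrophage-like cells with under 100 UMIs of smooth muscle markers. *Cd14*, the co-receptor that hands lipopolysaccharide to the TLR4 complex, followed macrophage-like cells even more closely, with levels of 698, 449 and 725 CPM there. Here *APOE3* was the lowest library and *APOE2* and *APOE4* overlapped, with log2 ratios of 0.64 (0.52 to 0.76) and 0.69 (0.55 to 0.84). After each cell was thinned to 1000 UMIs, *Cd14* was found in 37.9%, 28.8% and 38.6% of macrophage-like cells, with 28, 13 and 22 shallower cells left out, and in 0.256%, 0.131% and 0.0517% of smooth muscle-like cells. Before thinning the shares were 73.7%, 66.4% and 66.9% of macrophage-like cells. The summed level of the 10 smooth muscle markers in macrophage-like cells was 7000, 18680 and 11070 CPM in the 3 libraries and thus highest in *APOE3*. Among macrophage-like cells with under 100 UMIs of these markers the log2 ratios to *APOE3* were smaller and short of the fold, at 0.39 and 0.56 for *Cd14* and 0.32 and 0.35 for *Tlr4* in *APOE2* and *APOE4*, whereas *Nfkb1* in *APOE4* remained past it at 1.14.

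Among the 15 other Toll-like receptors and co-receptors, 4 or 5 had enough UMIs in the smooth muscle-like and fibroblast-like comparisons and 7 to 10 in macrophage-like cells. *Lbp*, whose product carries lipopolysaccharide to CD14, was the 1 gene of 4 past the fold in fibroblast-like cells, at 140.4, 76.5 and 45.5 CPM. It was higher in *APOE2* by a log2 ratio of 0.88 (0.76 to 1.00) and lower in *APOE4*, at −0.75 (−0.91 to −0.59). Of all genes in these cells, 4.91% were higher in *APOE2* and 4.91% lower in *APOE4*. In macrophage-like cells 1 of 10 was higher and 2 were lower in *APOE2*, against 8.84% and 11.1% of all genes. *Tlr1* was the higher one, at 18.02 CPM compared to 10.3 CPM. Its log2 ratio was 0.81 (0.005 to 1.71) on 85 and 15 UMIs and was not recomputed among cells with few smooth muscle transcripts. In *APOE4* 0 of 7 passed the fold in either direction, against 8.82% higher and 9.01% lower of all genes.

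*Myd88*, the adaptor shared by most Toll-like receptors and the interleukin 1 receptor, had a low and flat level. Smooth muscle-like cells held 10.0, 10.3 and 11.1 CPM in *APOE2*, *APOE3* and *APOE4*, and the intervals of *APOE3* overlapped those of both other libraries. Fibroblast-like cells held 19.5, 18.7 and 26.3 CPM, with *APOE4* the highest at a log2 ratio to *APOE3* of 0.50 (0.23 to 0.77), short of the fold. Macrophage-like cells held 24.6, 15.1 and 22.5 CPM from 116, 22 and 35 UMIs, and the *APOE2* ratio of 0.70 (0.04 to 1.43) passed the fold on few counts. Among macrophage-like cells with under 100 smooth muscle marker UMIs it was 0.53 (−0.20 to 1.34), short of the fold and with an interval that included 0. The macrophage-like and fibroblast-like ranges of *Myd88* overlapped. Of the kinases and adaptors around it, 0 of 14 were past the fold in *APOE4* smooth muscle-like cells and 1 of 14 in *APOE2*, which was *Irak3*, an inhibitory kinase of the family, at 4.83 compared to 3.09 CPM. Of all genes, 8.31% were higher in *APOE4* and 9.96% in *APOE2* there. In macrophage-like cells 3 of 14 were higher and 1 lower in *APOE2*, against 8.84% and 11.1% of all genes. Among the higher ones *Traf6*, the ubiquitin ligase downstream of MyD88, was at 44.5 compared to 24.7 CPM. In *APOE4* 3 of 9 were higher and 1 lower, against 8.82% and 9.01% of all genes. The lower one was *Irak1*, a kinase recruited by MyD88, at 28.9 compared to 45.3 CPM. These ratios were not recomputed among cells with few smooth muscle transcripts.

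*Nfkb1* encodes the p105 precursor of the p50 subunit and is itself induced by NF-kB. It was highest in macrophage-like cells, at 402, 364 and 908 CPM. Fibroblast-like cells held 217, 179 and 404 CPM, and smooth muscle-like cells 60.9, 41.9 and 63.4 CPM. In both macrophage-like and fibroblast-like cells the *APOE4* library stood far above the other two, with log2 ratios to *APOE3* of 1.32 (1.17 to 1.47) and 1.18 (1.10 to 1.26). In smooth muscle-like cells *APOE3* was the low library, and the *APOE4* and *APOE2* log2 ratios to it were 0.60 (0.54 to 0.65) and 0.54 (0.48 to 0.60). *Nfkb1* was higher in *APOE4* than in *APOE3* in 9 of 9 smooth muscle-like clusters with enough UMIs, 6 of them with an interval above 0, and in both fibroblast-like clusters. In T lymphocyte-like cells the order differed, at 272, 228 and 167 CPM, with *APOE4* the lowest. The other NF-kB subunits and IkB proteins included 3 of 8 that were higher in *APOE4* fibroblast-like cells, against 5.53% of all genes. These 3 were *Rel* at 55.4 compared to 21.5 CPM, *Nfkbiz* at 259.9 compared to 101.8 CPM and *Bcl3* at 19.2 compared to 10.2 CPM. In *APOE4* macrophage-like cells 5 of 9 were higher, against 8.82% of all genes. Among the 5 were *Rel* with a log2 ratio of 0.89 (0.72 to 1.07) and *Nfkb2* with 0.90 (0.31 to 1.52), and none of these lists held a lower subunit past the fold.

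*Nfkbia*, which holds NF-kB in the cytoplasm until it is degraded, differed between genotypes past the fold in smooth muscle-like and fibroblast-like cells. Smooth muscle-like cells held 349.9, 286 and 633 CPM of it, and fibroblast-like cells held 593, 497 and 1097 CPM. *APOE4* was the highest library in both, with log2 ratios to *APOE3* of 1.14 (1.12 to 1.16) and 1.14 (1.10 to 1.19), and the *APOE2* ratios were 0.29 and 0.26. After thinning to 1000 UMIs *Nfkbia* was found in 20.2%, 19.1% and 37.4% of smooth muscle-like cells, and in 30.3%, 28.9% and 47.1% of fibroblast-like cells. The unthinned shares were 75.2%, 84.97% and 89.7%, and 78.0%, 74.8% and 84.2%. In endothelial-like cells *Nfkbia* was at 744, 730.5 and 793 CPM, and in macrophage-like cells at 2149, 2117 and 1944 CPM. Neither of these classes showed a difference past the fold, and the *APOE4* macrophage-like value was the lowest, with a log2 ratio of −0.12 (−0.20 to −0.05). Among macrophage-like cells with under 100 UMIs of smooth muscle markers both libraries were below *APOE3*, though short of the fold. The ratios were −0.22 (−0.28 to −0.16) in *APOE2* and −0.36 (−0.44 to −0.28) in *APOE4*. The smooth muscle-like classes of the 3 libraries were not made up of the same clusters, since the largest was K3 in *APOE2* with 1801 cells, K0 in *APOE3* with 1004 cells and K1 in *APOE4* with 1566 cells. Within clusters, *Nfkbia* was higher in *APOE4* than in *APOE3* in 10 of 10, each with an interval above 0, at log2 ratios between 0.79 and 1.86.

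*Tnfaip3*, the A20 gene, was lowest in *APOE3* in each of the classes described here. Smooth muscle-like cells held 13.5, 4.51 and 10.3 CPM in *APOE2*, *APOE3* and *APOE4* (1647, 441 and 1066 UMIs), and fibroblast-like cells 30.7, 20.1 and 40.6 CPM. The log2 ratios to *APOE3* were, in *APOE2* and *APOE4*, 1.58 (1.43 to 1.74) and 1.20 (1.03 to 1.36) in smooth muscle-like cells and 0.61 (0.37 to 0.86) and 1.01 (0.77 to 1.26) in fibroblast-like cells. It was higher in *APOE4* than in *APOE3* in 8 of 8 smooth muscle-like clusters with enough UMIs, each with an interval above 0. In *APOE2* it was higher in 9 of 9, 7 of them with an interval above 0. In macrophage-like cells *Tnfaip3* was at 218, 183 and 214 CPM, and the *APOE4* interval, from −0.01 to 0.46, included 0. Among those with under 100 UMIs of smooth muscle markers the ratios were −0.03 (−0.23 to 0.18) in *APOE2* and 0.02 (−0.22 to 0.27) in *APOE4*. T lymphocyte-like cells held 146, 68.7 and 89.1 CPM, the *APOE3* value from 32 UMIs of 24 cells. Other feedback inhibitors of the pathway included 5 of 11 that were higher in *APOE4* smooth muscle-like cells, against 8.31% of all genes. In *APOE4* fibroblast-like cells 6 of 11 inhibitors were higher, against 5.53% of all genes, and 0 were lower in both classes. Among them *Ier3*, an early NF-kB target, was at 500.8 compared to 172 CPM in smooth muscle-like and 441 compared to 131 CPM in fibroblast-like cells, and *Socs3*, an inhibitor of cytokine signalling, was at 186.5 compared to 85.7 CPM and 143 compared to 50.7 CPM.

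Immediate early genes and heat shock genes, which enzymatic digestion of tissue is known to induce, were higher in the same cells. The summed level of a list of 12 such genes was 12790, 15690 and 21630 CPM in smooth muscle-like cells of *APOE2*, *APOE3* and *APOE4*, and 8818, 9000 and 17600 CPM in fibroblast-like cells. In *APOE4* relative to *APOE3*, 10 of the 12 were past the fold in fibroblast-like cells with a median log2 ratio of 0.97, and 6 of 12 in smooth muscle-like cells with a median of 0.53. Of all genes, 5.53% and 8.31% were higher in these 2 classes. In macrophage-like cells the sum of the list stood at 20040, 28570 and 24870 CPM, the reverse order between *APOE3* and *APOE4*. The heat shock genes *Hspa1a* and *Hspa1b* were at 6363 and 4664 CPM of that *APOE3* sum. Gene by gene, the median log2 ratio of *APOE4* to *APOE3* there was −0.051. Past the fold, 1 of 12 was higher, *Fosb* at 0.996 (0.837 to 1.158), and 1 was lower, *Dnajb1* at −0.895 (−1.025 to −0.765). Across 30 points, 10 smooth muscle-like clusters in each of 3 libraries, the *Nfkbia* level followed the list with a Pearson correlation of 0.849 and a Spearman correlation of 0.847, where the points share libraries and depth, whereas for *Tlr4* the values were 0.108 and 0.177. They were 0.584 and 0.673 for *Tnfaip3*, 0.456 and 0.608 for *Myd88*, 0.385 and 0.439 for *Nfkb1* and 0.369 and 0.430 for *Tlr2*. The list was higher in *APOE4* than in *APOE3* in 9 of the 10 clusters, with log2 ratios of −0.02 to 1.61, and the cluster with −0.02 was K1, which was led by such genes. In K1 the ratios of the members were nevertheless 0.855 (0.826 to 0.884) for *Nfkbia*, 0.866 (0.768 to 0.965) for *Nfkb1* and 0.902 (0.665 to 1.14) for *Tnfaip3*. In *APOE2* relative to *APOE3* the list was higher in 2 of the 10 clusters and *Nfkbia* in 8 of the 10.

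Cells were then compared between libraries within ranges of their own summed level of these 12 genes, a comparison added after the values were seen. In smooth muscle-like cells under 5000 CPM of the list, *Nfkbia* was at 116 CPM in both *APOE3* and *APOE4*, with a log2 ratio of −0.00 (−0.10 to 0.09). Between 5000 and 10000 CPM the ratio was 0.56 (0.48 to 0.65), between 10000 and 20000 CPM it was 1.00 (0.95 to 1.05), and over 20000 CPM it was 0.65 (0.62 to 0.67). The interval included 0 among the cells with the least of the list, and in the other ranges the ratio was above 0 but below the 1.14 of the class. In fibroblast-like cells the 4 ratios were 0.34, 0.35, 0.51 and 0.12, all below the 1.14 of the class. For *Nfkb1* they were 0.09, 0.14, 0.27 and 0.50 in smooth muscle-like cells and 0.37, 0.10, 0.43 and 0.29 in fibroblast-like cells, where the class had 1.18. *Tnfaip3*, with fewer UMIs, gave −0.12, 0.83, 1.10 and 0.68 in smooth muscle-like cells, where the class had 1.20, and 0.15, 0.88, 0.21 and −0.03 in fibroblast-like cells, where it had 1.01. In macrophage-like cells the ratios were not reduced throughout. *Nfkbia* gave −1.10, 3.10, 0.62 and −0.43 there. *Nfkb1* lay from 0.16 to 3.78, below the ratio of its class in the lowest and highest ranges and above it in the others. The range between 5000 and 10000 CPM, with the highest ratios, held only 20 *APOE3* and 21 *APOE4* macrophage-like cells. What raised the list in *APOE4* was not tested. Each genotype was digested and captured as 1 pool, so digestion and genotype cannot be told apart here.

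**Figure D3:**
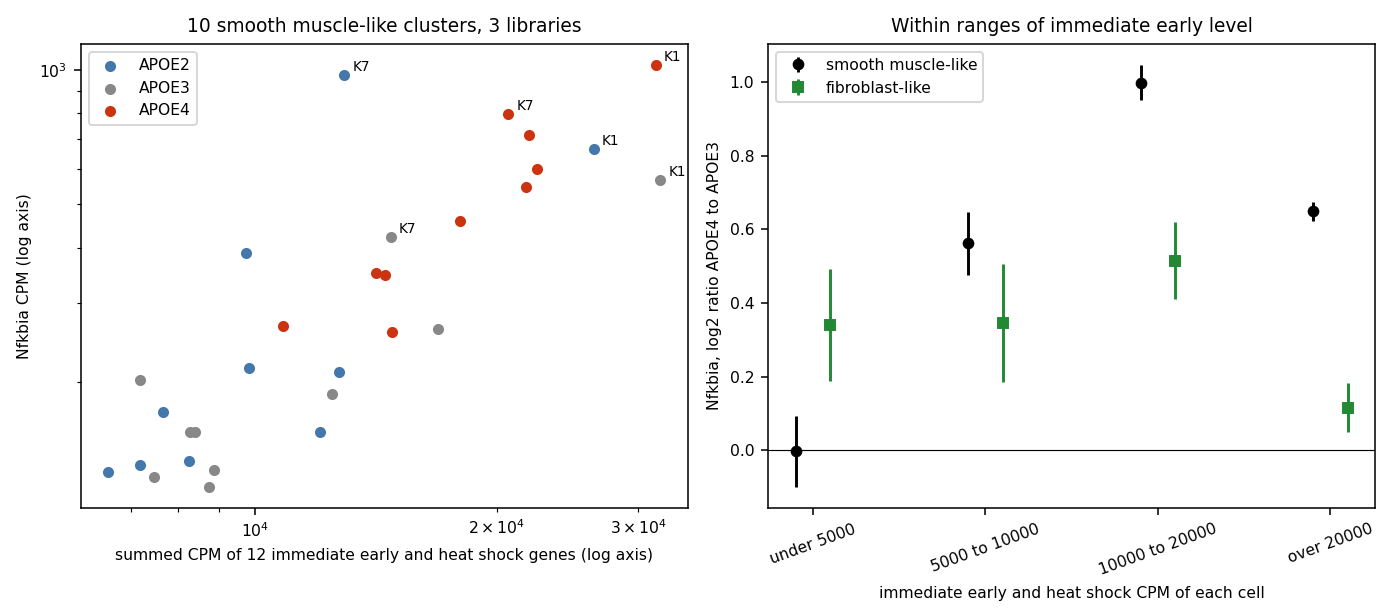
Left, *Nfkbia* CPM against the summed CPM of 12 immediate early and heat shock genes, both on log axes, for 10 smooth muscle-like clusters in each of the 3 libraries; right, log2 ratio of *Nfkbia* in *APOE4* to *APOE3* within 4 ranges of that summed level per cell, with 95% counting intervals. Across the points *Nfkbia* is mostly higher where the list is higher. In K1 the log2 ratio of *APOE4* to *APOE3* is −0.019 for the list and 0.855 for *Nfkbia*. The smooth muscle-like ratio in the lowest range is −0.00.

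The cytokine genes were detected in few cells. Macrophage-like cells of the 3 libraries held 465, 288.5 and 291 CPM of *Il1b*. *APOE2* was the highest, with a log2 ratio to *APOE3* of 0.69 (0.54 to 0.84), and the other two libraries overlapped. The *APOE2* ratio was short of the fold at 0.48 with finer clusters (Louvain resolution 1.6), 0.32 with classes set for each cell and 0.39 among cells with under 100 smooth muscle marker UMIs. In addition, 1 cell held 53.1% of the 420 UMIs of *APOE3*, 25.8% of the 453 of *APOE4* and 12.8% of the 2191 of *APOE2*, and without the cell with the most UMIs in each library the *APOE2* ratio was 1.58. Thinned to 1000 UMIs, *Il1b* was found in 13.7%, 8.63% and 9.15% of macrophage-like cells, with overlapping intervals, and the unthinned shares were 25.9%, 15.8% and 21.7%. It was counted at 0 UMIs in all endothelial-like and all T lymphocyte-like cells, which allows up to 1.41 and 0.994 CPM. In smooth muscle-like cells it was found in 36, 6 and 11 cells with 81, 6 and 17 UMIs, or 0.664, 0.0613 and 0.165 CPM. The *APOE2* counts were unevenly spread, with 27 UMIs in 2 cells of the subset described below and 29 UMIs, or 10.4 CPM, in cluster K8. Thinned to 1000 UMIs, 0.103%, 0.0218% and 0.0172% of smooth muscle-like cells held *Il1b*. Whether these counts were background or expression was not tested.

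*Tnf*, the gene for tumour necrosis factor, was counted at 560.2, 461.5 and 902 CPM in macrophage-like cells. *APOE4* was the highest, with a log2 ratio to *APOE3* of 0.97 (0.83 to 1.10), and *APOE2* was above *APOE3* by 0.28 (0.16 to 0.40). Among macrophage-like cells with under 100 UMIs of smooth muscle markers the *APOE4* ratio was 0.72 (0.58 to 0.86). The *APOE2* ratio there was −0.045 (−0.17 to 0.08), with an interval that included 0. A single *APOE3* cell held 21.6% of the 672 UMIs there, and without the top cell of each library the *APOE4* ratio was 1.24. After thinning *Tnf* was found in 31.9%, 21.6% and 32.0% of macrophage-like cells, compared to 64.7%, 50.7% and 60.6% before. T lymphocyte-like cells had 25.1, 32.2 and 25.1 CPM. Smooth muscle-like cells held 71, 9 and 12 UMIs, and *APOE2* stood above *APOE3* by 2.66 (1.66 to 3.85) on the log2 scale, at levels under 1 CPM. Without integration the ratio was −0.70, from 26 and 38 UMIs. Cluster K8 held 36 of the 71 *APOE2* UMIs, at 12.9 CPM, and whether these counts were background or expression was not tested. The *APOE2* library also held more UMIs of both genes in its myeloid cells than *APOE3*, with 2191 and 420 for *Il1b* and 2642 and 672 for *Tnf* in macrophage-like cells, and 3214 and 278 and 217 and 7 in neutrophil-like cells. The summed markers of macrophages, neutrophils and dendritic cells in the smooth muscle-like class were 84.7, 75.4 and 75.5 CPM, so that the *APOE2* class also held somewhat more myeloid transcript, and the part of these in the *Tnf* and *Il1b* ratios was not tested.

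*Il6*, in contrast, was at 10.0, 8.49 and 28.0 CPM in fibroblast-like cells, from 167, 81 and 341 UMIs in 67, 21 and 91 cells. *APOE4* was higher than *APOE3* by a log2 ratio of 1.72 (1.37 to 2.09) and higher than *APOE2* by 1.48 (1.21 to 1.76), whereas *APOE2* and *APOE3* overlapped. Macrophage-like cells held only 11, 3 and 5 UMIs. In the smooth muscle-like class the order was another one, with 276 UMIs in 40 cells of *APOE2*, 7 UMIs in 6 cells of *APOE3* and 52 UMIs in 21 cells of *APOE4*, which gave log2 ratios to *APOE3* of 4.98 (3.92 to 6.31) and 2.82 (1.67 to 4.20). At 2.26 CPM the *APOE2* class average described very few cells, 0.506% of the class.

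Other NF-kB target cytokines and effectors were counted by the same rule. In *APOE2* smooth muscle-like cells 12 of 16 were higher and 1 lower with a median log2 ratio of 1.47, and in *APOE4* 8 of 14 were higher and 2 lower with a median of 0.76. Of all genes, 9.96% were higher and 2.88% lower in *APOE2*, and 8.31% and 3.37% in *APOE4*. *Nos2*, the inducible nitric oxide synthase, was counted 225 times in *APOE2* and once in *APOE3* (log2 ratio 7.50, interval 5.00 to 12.81), *Sele*, which encodes the adhesion molecule E-selectin, 495 and 4 times, and the neutrophil chemokine gene *Cxcl2* was at 52.1 compared to 0.827 CPM. Much of this came from 190 cells of the *APOE2* class, described next, whose class differed between clusterings. They held 92.3% of the *Cxcl2*, 94.7% of the *Ccl2*, 81.8% of the *Cxcl1*, 67.3% of the *Icam1* and 66.3% of the *Vcam1* UMIs of that class. The count of 12 of 16 was not repeated without them. In *APOE4*, *Cxcl2* and *Cxcl1* were higher, at 3.89 and 25.4 compared to 0.827 and 6.81 CPM, and *Ccl5* was lower, at 0.184 compared to 1.22 CPM. The *Ccl5* levels rested on 19 and 119 UMIs, and whether these were background or expression was not tested. In *APOE4* fibroblast-like cells 7 of 10 were higher and 0 lower with a median of 1.17, against 5.53% of all genes higher. They were led by *Ccl4*, *Ptgs2* and *Cxcl2*, of which *Ptgs2*, the inducible cyclooxygenase, was at 50.7 compared to 11.8 CPM. In *APOE2* fibroblast-like cells 4 of 9 were higher, against 4.91% of all genes, and 0 lower, with the monocyte chemokine gene *Ccl2* at 135.1 compared to 24.7 CPM. In macrophage-like cells 7 of 14 were higher and 1 lower in *APOE2*, led by *Il1a* at 59.0 compared to 2.75 CPM, against 8.84% and 11.1% of all genes. In *APOE4* 9 of 13 were higher and 0 lower, against 8.82% and 9.01%, and *Cxcl1* was at 686 compared to 173 CPM. The inflammasome gene *Nlrp3* was higher in both, at 162 CPM in *APOE2* and 294 CPM in *APOE4* compared to 76.9 CPM in *APOE3*. The macrophage-like ratios of genes other than the members were not recomputed among cells with few smooth muscle transcripts.

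A set of cells, identified after these values were seen, held 92.8% of the *Il6*, 42.1% of the *Tnfaip3*, 33.3% of the *Il1b* and 11.3% of the *Tnf* UMIs of the *APOE2* smooth muscle-like class. Among the smooth muscle-like cells, 241 (190 *APOE2*, 28 *APOE3* and 23 *APOE4*), nearly all in cluster K7, fell into another cluster when clustering was coarser. Of the 190 *APOE2* cells, 0 to 5 were placed in the smooth muscle-like class by other clusterings, and 120 when classes were set for each cell by its own markers. In *APOE2* they held *Spp1*, *Lcn2* and the matrix genes *Lum*, *Dcn* and *Prg4*, and *Acta2*, the smooth muscle actin gene, was at 6101, 2184 and 3515 CPM in the 3 libraries compared to 22840, 27180 and 25820 CPM in the other smooth muscle-like cells. They made up 2.4%, 0.606% and 0.394% of the class. *Nfkbia* was at 1846, 1116 and 2343 CPM in these cells compared to 274.5, 282 and 625.5 CPM in the others, *Nfkb1* at 323, 416 and 650.4 CPM compared to 47.7, 39.97 and 60.9 CPM, and *Tnfaip3* at 118, 61.4 and 55.0 CPM compared to 8.22, 4.21 and 10.1 CPM. The same cells were higher for both receptors, with *Tlr2* at 37.1, 29.7 and 45.8 CPM compared to 4.63, 4.41 and 5.77 CPM and *Tlr4* at 36.2, 29.7 and 36.6 CPM compared to 16.9, 16.4 and 16.4 CPM. For *Il6* the set held 256 of the 276 *APOE2* UMIs in 27 cells.

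Without these cells the ratios of the 4 genes counted as higher in *APOE2* were still past 1.5-fold, and those of the other 6 were short of it. *Il6*, with 20 and 6 UMIs, was then under the minimum of UMIs and would no longer be counted as higher. On the log2 scale *APOE2* relative to *APOE3* stood at −0.04 (−0.06 to −0.02) for *Nfkbia*, 0.26 (0.20 to 0.32) for *Nfkb1* and 0.07 (−0.11 to 0.26) for *Tlr2*, while *Tnfaip3* remained higher at 0.96 (0.80 to 1.14) and *Il6* stood at 1.48 (0.12 to 3.09) from 20 and 6 UMIs. The low counts of *Il1b* and *Tnf* gave 2.92 (1.70 to 4.42) and 2.55 (1.54 to 3.75), from 54 and 6 and from 63 and 9 UMIs. The *APOE4* ratios differed little from those of the whole class, with 1.15 for *Nfkbia*, 0.61 for *Nfkb1* and 1.27 for *Tnfaip3*. *Il6* in *APOE4* was then higher than in *APOE2*, by 0.85, where the whole class gave −2.17, so the order of these 2 libraries for *Il6* in smooth muscle-like cells rested on where 190 *APOE2* cells were placed.

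**Figure D4:**
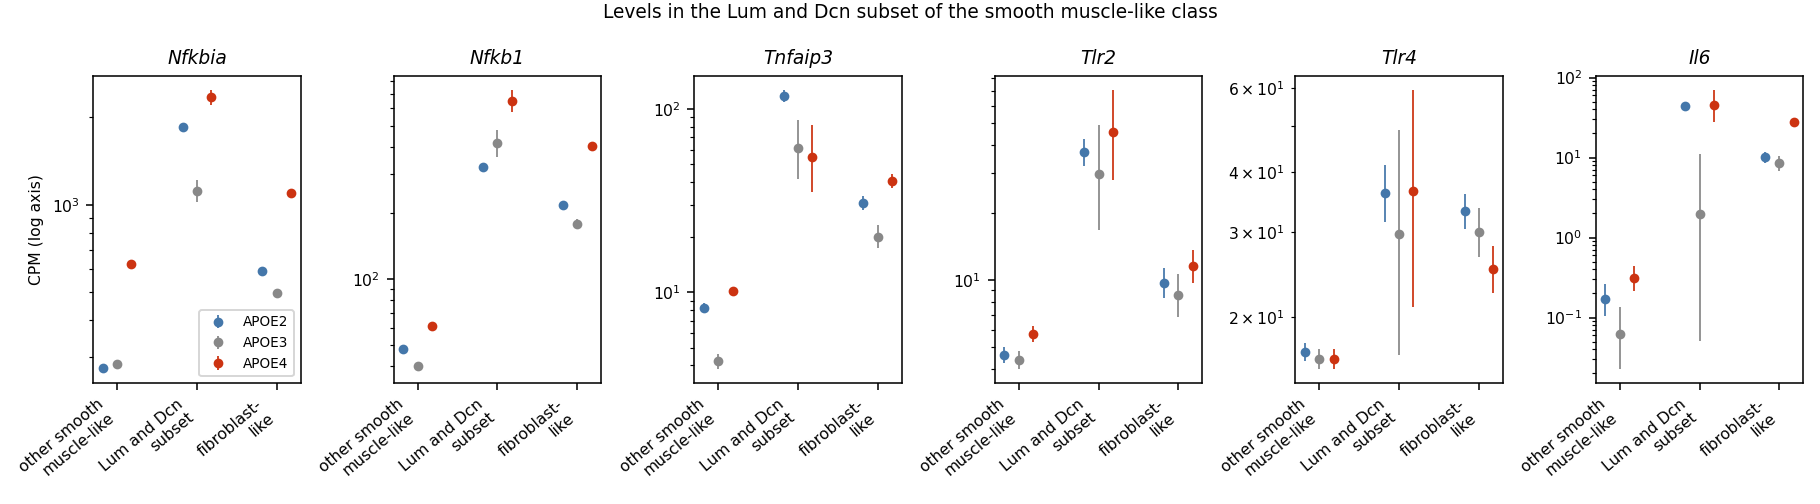
CPM on a log axis of members in the other smooth muscle-like cells, in the *Lum* and *Dcn* subset of that class and in fibroblast-like cells, for the 3 libraries, with exact Poisson 95% intervals. *Nfkbia* of *APOE2* is at 274.5 CPM in the other cells, 1846 CPM in the subset and 593 CPM in fibroblast-like cells.

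Macrophage-like cells were also divided into 6 sub-clusters. The largest, M0, with 120, 54 and 86 cells of *APOE2*, *APOE3* and *APOE4*, was led by *Cxcl13*, *Fcna*, *Lyve1*, *Folr2* and *Vsig4*, genes of resident macrophages, while M1, with 100, 30 and 22 cells, was led by *Spp1*, *Fabp5*, *Gpnmb* and *Mmp12*, genes of lipid-laden macrophages, together with haemoglobin transcripts. In M0 the *APOE4* library stood apart. *Nfkb1* was at 293, 285.5 and 1005 CPM, *Tnf* at 248, 199 and 847 CPM, *Tlr2* at 139.5, 109 and 262 CPM and *Tnfaip3* at 128, 101 and 224 CPM, with log2 ratios of *APOE4* to *APOE3* of 1.82 (1.58 to 2.05), 2.09 (1.82 to 2.37), 1.27 (0.88 to 1.67) and 1.15 (0.74 to 1.58). The *APOE2* values of these genes lay close to *APOE3*, with intervals that included 0 for all but *Tnf*. *Tlr4* was even in M0, at 58.2, 49.7 and 57.8 CPM, and *Nfkbia*, at 1793, 1481 and 2266 CPM, was highest in *APOE4*, unlike in the whole class.

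In M1 most members were more abundant, and for some of them the order of the libraries differed from that in M0. *APOE4* was the highest library in both for *Tlr2*, *Cd14*, *Nfkb1*, *Il1b* and *Tnf*. *Il1b* was at 935, 999 and 1341 CPM compared to 70.1, 43.3 and 107 CPM in M0, although 1 cell held 59.9% of the *APOE3* UMIs in M1. *Nfkbia* was highest in *APOE3*, at 2985, 4905 and 2244 CPM, the opposite of its order between *APOE3* and *APOE4* in M0. *Tnfaip3* was also highest in *APOE3* in M1, at 309, 489 and 400 CPM. Its log2 ratios to *APOE3* there were −0.66 (−0.91 to −0.41) in *APOE2* and −0.29 (−0.66 to 0.07) in *APOE4*. *Nfkb1* and *Tnf* were highest in *APOE4*, at 467, 693 and 1357 CPM and 882.5, 1338 and 2014 CPM, with *APOE2* the lowest. *Tlr4* rested on 68, 7 and 6 UMIs in M1, at 38.7, 18.8 and 23.7 CPM with intervals that overlapped. Since M1 made up 100 of 482 macrophage-like cells in *APOE2* and 22 of 175 in *APOE4*, the levels over the whole class also depended on these shares, and fewer cells of one kind cannot be told apart there from less transcript per cell. Of the other sub-clusters, M2 was led by *Nrgn*, *Ctla2a*, *Ppbp*, *Gp9*, *Gng11* and *Clec1b* and held 37370 CPM of smooth muscle markers. Its median UMI count was 0.147 of that of all macrophage-like cells, and whether its cells were macrophages was not tested. M2 made up 64 of 482 macrophage-like cells in *APOE2*, 36 of 152 in *APOE3* and 49 of 175 in *APOE4*. *Cd14* was at 194.1, 95.97 and 105.9 CPM in M2 and *Tnf* at 61.95, 27.99 and 40.34 CPM, below M0 and M1 in each library. The levels over the whole class therefore also depended on the share of M2, and ratios without it were not computed. M3, with 120 of its 140 cells from *APOE2*, was led by *Sfrp2* and *Unc5c* and had 11.4% of its cells among the highest doublet scores.

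**Figure D5:**
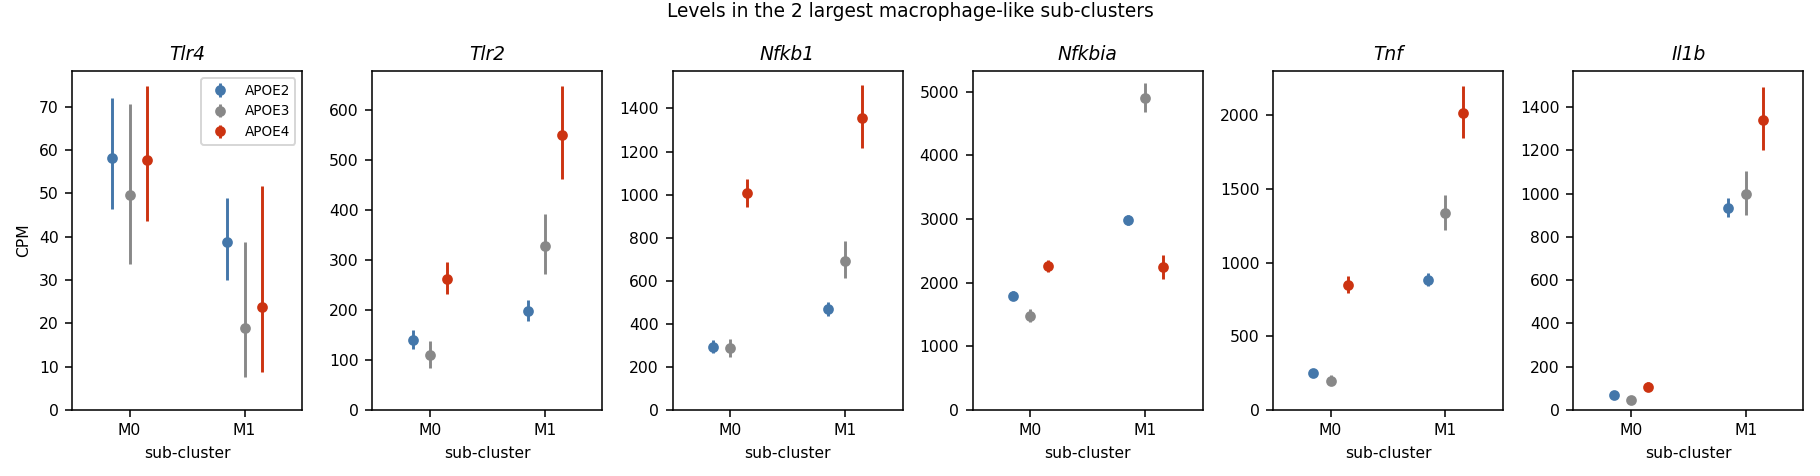
CPM of members in the 2 largest macrophage-like sub-clusters, M0 and M1, for the 3 libraries with exact Poisson 95% intervals. *Nfkb1* and *Tnf* of *APOE4* lie above the other libraries in M0, at 1005 and 847 CPM, and *Il1b* is higher in M1 than in M0 in every library.

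The smaller immune classes gave levels from few cells. Neutrophil-like cells, of which *APOE2* held 76, *APOE3* 10 and *APOE4* 7, had *Il1b* at 8366, 5700 and 3896 CPM and *Nfkbia* at 3725, 4491 and 7351 CPM. *Cd14* was at 1309 CPM in the *APOE2* cells, while the 18 UMIs of *APOE3* lay mostly in 1 cell, with 77.8% of them, and *APOE4* had 3 UMIs. All 30 *Il6* UMIs of the *APOE4* neutrophil-like cells were in 1 cell. In B lymphocyte-like cells 106 *Il1b* UMIs of *APOE2* came from 2 cells, so no level was compared. In endothelial-like cells 4 of the members had enough UMIs for *APOE2* to *APOE3*, and *Nfkb1*, at 116 compared to 73.5 CPM, had a log2 ratio of 0.66 (0.11 to 1.24) on 165 and 33 UMIs, the sign of which depended on how cells were assigned to classes. *Tnfaip3*, at 41.5 compared to 22.3 CPM there, had 0.90 (−0.08 to 2.03) on 59 and 10 UMIs, also past 1.5-fold but with an interval that included 0.

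The genes most like each member in their level were taken over 12 points, 4 classes (smooth muscle-like, fibroblast-like, endothelial-like and macrophage-like) in each of the 3 libraries, by the Pearson correlation of log2(CPM + 1). *Tlr2* and *Cd14* were among each other's 3 nearest, at 0.989, beside *Lacc1*, *Ly86* and *Plek*. *Tnf* was nearest to *Lrmp*, *Cdkn2a* (0.994) and *Clec4e*, and *Il1b* to *Csf3r*, *Itgb2* and *Msr1* (0.999). *Nfkb1* was nearest to *Peak1* (0.964), *Diaph2* and *Birc3*, and *Nfkbia* and *Tnfaip3* shared *Ubash3b* and *Baz1a*, with *Dennd4a* nearest to *Nfkbia* (0.970) and *Ubash3b* nearest to *Tnfaip3* (0.982). *Tlr4* was nearest to *Cep83* (0.987), *Myd88* to *Zfp709* (0.951) and *Il6* to *Iqsec2* (0.918). These correlations describe shared cell types among points that share libraries, and for *Il1b*, *Tnf*, *Cd14* and *Tlr2* they rest mostly on the contrast of macrophage-like cells with the rest.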

How the data were processed

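Single-cell RNA libraries of 3 genotype pools of mouse aorta were analysed. The authors deposited UMI counts per gene and cell, made with Cell Ranger 7.0.1 per the file headers and the mm10 reference, as filtered matrices. Cells with at least 200 genes and under 20% mitochondrial UMIs were kept, which left more cells than the study states it analysed. Counts were normalized with sctransform 0.4.2 and integrated by canonical correlation in Seurat 5.3.0 (R 4.3.3) over 3000 features, without the genes and lists described here, and 30 components with Louvain resolution 0.8. A cluster was named when at least 3 markers of a class reached 10% of its cells and 2-fold the level elsewhere, or when 8 of 10 smooth muscle markers kept 50% of their level in all cells with no other class raised. Clusters with conflicting markers, or with a median UMI count under the sample's divided by 3 without such markers among their top genes, stayed unnamed. Scrublet (scanpy 1.11.5) scored doublets, and the cells with the highest scores (0.994%, 2.09% and 1.47% of *APOE2*, *APOE3* and *APOE4*) were kept and left out only as an alternative.

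For each class and library, the UMIs of a gene were added up and divided by all UMIs of those cells (CPM), with Python 3.11.15, numpy 2.4.6, scipy 1.17.1 and pandas 2.3.3. Levels have exact Poisson, ratios exact conditional binomial and shares exact Clopper-Pearson 95% intervals. They leave out the variation between mice and cover counting error only, and UMIs of 1 cell are not independent. A level of 0 was given the limit that 3 counts would allow. With 1 library per genotype no test was run. All 10 genes are described. Of the other lists, the text names genes past 1.5-fold with at least 100 UMIs in the 2 libraries, at most the 3 with the largest ratios, and the 3 genes nearest to each member. The members and lists were chosen with earlier results of these data known. The calculation was tested on simulated data.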

Additional observations from a re-analysis of the deposited data

Results flagged for a closer look

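For *Il6*, the log2 ratio of *APOE4* to *APOE2* had opposite signs in the 2 classes that held most of its UMIs, at −2.17 in smooth muscle-like and 1.48 in fibroblast-like cells. Without the *Lum* and *Dcn* subset the smooth muscle-like ratio was 0.85, so the signs were then not opposite. For *Tnf* the log2 ratio of *APOE4* to *APOE2* was −2.33 in smooth muscle-like cells, from 12 and 71 UMIs, and 0.69 in macrophage-like cells. With 1 library per genotype the difference between the classes was not tested for either gene.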

How the results depend on the processing

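Ratios of the members between libraries were recomputed under 14 alternatives, 3 of which were chosen after the data were seen. Of 1122 recomputed ratios, 897 lay within the counting interval of the original ratio. Changes of sign were counted only where the original ratio was past 1.5-fold with an interval that excluded 0, and there were 9. Some ratios nearer 0 also changed sign and are not in that count. One was *Tnf* of *APOE2* to *APOE3* in macrophage-like cells, at −0.045 among cells with few smooth muscle transcripts. The log2 ratio of *APOE4* to *APOE2* for *Il6* in smooth muscle-like cells was 1.09 and 0.85 at Louvain resolutions 0.4 and 1.6, 1.43 without integration, 1.34 with the list genes among the features and 0.85 without the *Lum* and *Dcn* subset. These came from 30 and 16, 30 and 19, 34 and 14, 29 and 13 and 32 and 20 UMIs. The interval at resolution 1.6, −0.022 to 1.765, included 0. *Nfkb1* in endothelial-like cells of *APOE2* to *APOE3* was −0.39 without integration, −0.22 with classes set for each cell and −0.09 without cells that held myeloid transcripts. *Tnf* in smooth muscle-like cells of *APOE2* to *APOE3* was −0.70 without integration.

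For *APOE2* to *APOE3* in smooth muscle-like cells, *Tnfaip3* was 0.95 and 0.97 at resolutions 0.4 and 1.6, 1.00 without integration, 0.92 with the list genes kept, 1.27 with classes per cell, 1.97 without cluster K1, 0.96 without the subset and 1.31 as the mean of each cell's CPM. *Il6* was 1.42, 1.65, 1.66 and 1.43 under the first 4 of these, 1.48 without the subset, 2.69 as the mean of each cell's CPM and 6.68 without cells that held myeloid transcripts. For *APOE4* to *APOE3*, *Nfkbia* in smooth muscle-like cells was 1.17 with the list genes kept, 1.24 without cells that held myeloid transcripts, 1.24 without K1, 1.19 as the mean of each cell's CPM and 1.22 scaled to the median gene. In fibroblast-like cells it was 1.09 without the highest doublet scores, 1.06 with classes per cell, 1.24 without cells that held myeloid transcripts and 1.24 scaled to the median gene, *Nfkb1* was 1.28 under that scaling, and *Il6* was 2.19 without cells that held myeloid transcripts. In macrophage-like cells, *Il1b* of *APOE2* to *APOE3* was 0.48 at resolution 1.6, 0.32 with classes per cell, 0.39 without cells that held many smooth muscle transcripts and 1.58 without the top cell of each library, and *Tnf* of *APOE4* to *APOE3* was 0.81 at resolution 1.6, 0.72 without the cells that held many smooth muscle transcripts and 1.24 without the top cells. The number of members higher at 2-fold was 0 of 8 in fibroblast-like and 0 of 9 in macrophage-like cells of *APOE2*, and 1 of 9 in macrophage-like cells of *APOE4*. Of all genes, 257 of 12413, 306 of 9207 and 194 of 7007 were higher at 2-fold there, in the same order. With no minimum of UMIs, 3 of 10 members were higher in fibroblast-like cells of *APOE2*, and the share of all genes under that rule was not computed. The causes of these moves were not tested. No paired analysis was possible because each genotype is 1 pooled library.

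Few UMIs limit *Il6* and *Tnf* outside their main classes, and few cells limit the levels in endothelial-like and neutrophil-like cells.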
